A study of Mus musculus with 11 samples.

Results

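The cells described here were adipose stem cells (ASC) of mouse perigonadal white adipose tissue (pgWAT) with reads of Dpp4 and of Pi16. ASC were taken as cells with Pdgfra at 20 CPM or more (CPM is the read count of a gene scaled to the total of the cell) and with Pecam1, Cdh5 and Kdr together under 50 CPM, which left 2052 of the 3261 cells. Of these ASC, 622 (30.3%) had Dpp4 at 10 CPM or more and Pi16 at 10 CPM or more, and they are called Dpp4+ Pi16+ ASC below; the 1430 remaining cells are the other ASC. Dpp4 encodes a dipeptidyl peptidase of the cell surface and Pi16 a peptidase inhibitor. ASC are fibroblast-like cells of the connective tissue between adipocytes, which can mature into adipocytes. Fibroblasts with DPP4 and PI16 lie in interstitial connective tissue and are regarded as an early progenitor state upstream of the committed preadipocytes marked by Col15a1, Icam1 or Pparg and of the cells marked by F3, which encodes CD142. The label progenitor was checked with Cd55 and Sema3c, which the rule did not use: both were higher in the Dpp4+ Pi16+ ASC of each mouse, as given below with their values. What the cells become was not measured.

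The mice carried a Pdgfrb-eGFP reporter transgene, in which the Pdgfrb promoter drives a green fluorescent protein, on a C57BL6/J background. Males and females were 12 to 20 weeks old, ate chow and received no treatment, and all of the mice compared carried the reporter. CD45-negative cells of the stromal vascular fraction were sorted into 11 plates by the reporter, by CD31 (the endothelial protein encoded by Pecam1) and, in mouse 2, by DPP4. Their RNA was read along the whole transcript with Smart-seq2, which keeps neither molecular identifiers nor strand. The labels name 7 mice, of which mice 1, 4 and 8 were male and mice 2, 3, 5 and 6/7 female; 6/7 stands for a pair of animals that share plates and enters as 1 sample. The reporter gate favours cells with Pdgfrb, and the gates differ between plates, so the shares of cells below are shares of sorted cells and not of the tissue. The median Dpp4+ Pi16+ cell had 715368 reads and the median other ASC 656024. Summed over the cells of a mouse, the Dpp4+ Pi16+ ASC gave 16415885 to 211460384 reads and the other ASC 42099588 to 358448646.

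Dpp4 and Pi16 chose the cells, and their levels are a description. Dpp4 had a median of 163 CPM over the 622 cells, and the medians of the 7 mice ran from 70.9 CPM in mouse 1 to 229 CPM in mouse 5. Pi16 had a median of 895 CPM, with mouse medians from 531 CPM (mouse 1) to 1374 CPM (mouse 3). Most of the selected cells lay far inside the limits: 425 had Dpp4 at 100 CPM or more and 530 had Pi16 at 100 CPM or more. Just inside, 34 cells had Dpp4 from 10 to under 20 CPM and 30 had Pi16 in that range. Just outside, 82 ASC passed for Pi16 with Dpp4 from 5 to under 10 CPM, and 20 passed for Dpp4 with Pi16 from 5 to under 10 CPM. Among the other ASC, 901 of 1430 cells had no Dpp4 read, whereas 113 had no Pi16 read. Dpp4 thus set the boundary for most cells, and Pi16 alone was present in 866 other ASC.

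The level of Pi16 outside the selected cells differed between plates. At 10 CPM or more it was seen in 347 of the 349 ASC of plate 131 (mouse 4), in 236 of 258 on plate 129 (mouse 3) and in 348 of 362 on plate 709 (mouse 2), against 38.8% to 62.8% of the ASC on the 6 other plates with more than 2 ASC. In mouse 4, even the 5th percentile of Pi16 among the other ASC was 24.4 CPM, so that Dpp4 decided nearly all calls there. As a background, 23 of 714 endothelial cells (EC; Pecam1, Cdh5 and Kdr together at 50 CPM or more and Pdgfra under 20 CPM) had Pi16 at 10 CPM or more, which is 3.22% (95% exact interval 2.05 to 4.79%), and 8 (1.12%, 0.485 to 2.196%) had Dpp4 at that level. Only 4 of these EC (0.5602%) had both. The EC had a median of 511283 reads, and these intervals cover counting error only, since reads without identifiers are not independent molecules. Mice 3 and 4 had under 10 EC each and gave no such background of their own, and in mouse 2 none of 223 EC, mostly from another plate, had Pi16 at that level. The cause of the high Pi16 level on plates 129, 131 and 709 was not tested. A Pi16 limit of 100 CPM was added as an alternative after seeing the data.

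**Figure D1:**
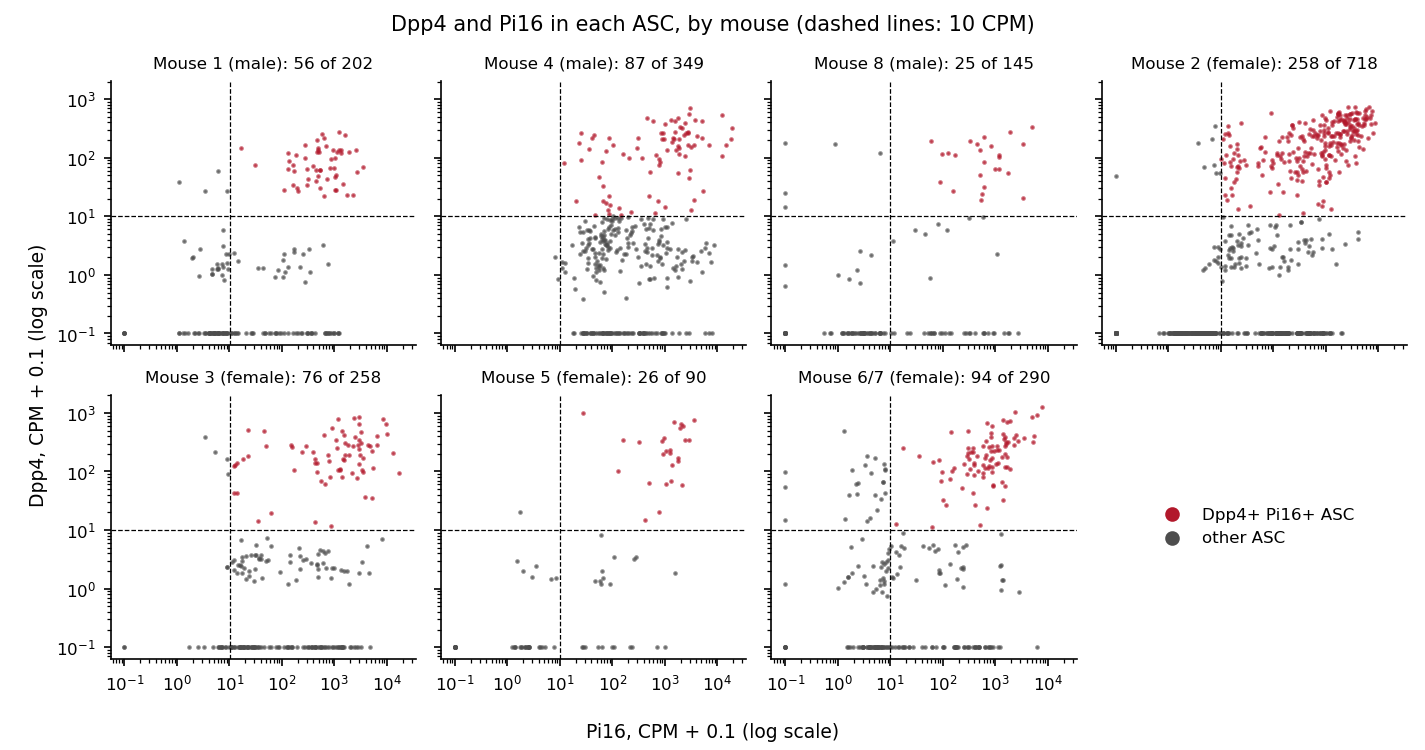
Each point is an ASC, with Pi16 on the x axis and Dpp4 on the y axis (both CPM + 0.1, log scales), in a panel for each mouse; red points are the 622 Dpp4+ Pi16+ ASC, grey points the other ASC, and dashed lines mark 10 CPM. Most red points lie well above both lines, and in mouse 4 nearly all ASC lie to the right of the Pi16 line.

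In the mice sorted without DPP4, Dpp4+ Pi16+ cells made up 17.2% to 32.4% of the ASC. In the males they were 27.7% of ASC in mouse 1 (56 of 202 cells, 95% Wilson interval 22.01 to 34.3%), 24.9% in mouse 4 (87 of 349, 20.7 to 29.7%) and 17.2% in mouse 8 (25 of 145, 11.96 to 24.2%). In the females they were 29.5% in mouse 3 (76 of 258, 24.2 to 35.3%), 28.9% in mouse 5 (26 of 90, 20.5 to 38.96%) and 32.4% in mouse 6/7 (94 of 290, 27.3 to 38%). Each female value lay above each male value, but the counting intervals of mice 1, 4, 3 and 5 overlap, and the separation depended on the limits. The means were 23.3% ± 5.43 (SD, n = 3) in males and 30.3% ± 1.89 (SD, n = 3) in females, with an exact two-sided permutation p of 0.1, the smallest that 3 against 3 mice allow. With limits of 5 CPM the difference (male minus female) was -4.19 percentage points (exact permutation p = 0.4), with 20 CPM -6.39 (exact p = 0.3) and with Pi16 at 100 CPM -7.05 (exact p = 0.2), so the sexes then overlapped. Without plates 171 and 344, which held CD31-positive sorts of males, it was -3.79, and without mouse 8 -3.93. Plate 344 was the only plate of mouse 8, so these 2 settings nearly coincide. The ASC of plate 43, whose label also names a CD31-positive sort, were kept. Mouse 2 was left out of this comparison because 1 of its plates was sorted for DPP4 and another against it; with it included the difference was -8.38 percentage points (male minus female, exact permutation p = 0.0286). In mouse 2 the 2 sorts gave 253 of 362 ASC (69.9%, 64.98 to 74.4%) on the plate sorted for DPP4 and 5 of 356 (1.404%, 0.601 to 3.25%) on the DPP4-negative plate.

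The Dpp4+ Pi16+ ASC differed from the other ASC of the same mouse in 887 genes. Progenitor markers such as Cd55 and Sema3c, the microfibril genes Fbn1 and Mfap5 and the ligands Bmp7, Wnt2 and Wnt11 were higher. Markers of committed preadipocytes such as Col15a1, Apoe and Lpl, and Gas6 and Cpe of the F3 cells, were lower. Of 11397 genes tested, 887 (7.78%) passed an adjusted p of 0.05 in edgeR's quasi-likelihood test with mouse as a block, 446 (3.91%) higher and 441 (3.87%) lower; they include Dpp4 and Pi16, which carry no information. In 757 of the 887 (6.64% of the genes tested) all 7 mice moved the same way. The levels below are normalised CPM (CPM scaled with edgeR's TMM factors) of the cells of a mouse summed, given as the median of the 7 mice with the lowest and the highest, and fold changes are log2 ± SE. This SE is the size of the log2 fold change divided by the square root of the F statistic of the test. Without the mouse term the count was 197, and against only those other ASC with neither gene, in 6 mice, it was 463. In mouse 2 the other ASC came mostly from the DPP4-negative plate; with the cells of the DPP4-positive plate alone 769 genes passed.

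All 26 genes of a list of progenitor markers that the rule did not use were higher (26 of 26, median log2 fold change 2.09, against -0.03 over all genes tested). The list was drawn up from what is known of these cells and with earlier results of these data in view, and so is no independent evidence of the direction. Cd55, which encodes a complement decay-accelerating protein used to sort these cells (chromosome 1, 130439027 to 130462744, GRCm38), stood at 455 CPM (291 to 862) in the Dpp4+ Pi16+ ASC against 127 CPM (51.2 to 220.01) in the other ASC. Sema3c, a secreted guidance factor (chromosome 5, 17574281 to 17730268), stood at 185 CPM (119 to 403) against 31.4 CPM (14.2 to 64.1). For neither gene did the ranges of the mice overlap, which was so for 143 of the 11397 genes (1.25%). The log2 fold change was 2.19 ± 0.17 for Cd55 and 2.66 ± 0.27 for Sema3c (edgeR quasi-likelihood test, adjusted p = 8.8e-05 and 0.000177). Anxa3, which encodes an annexin, had 298 CPM (199 to 760.2) against 61.7 CPM (28.2 to 141), and Efhd1, a calcium-binding protein of mitochondria, 200.2 CPM (155 to 274) against 22.5 CPM (4.38 to 43.2); their ranges did not overlap either. Akr1c18, which encodes a hydroxysteroid dehydrogenase that inactivates progesterone, was the most unequal gene of the list but was carried by few mice, at 3.96 CPM (0 to 156) against 0.0262 CPM (0 to 0.0856), and was higher in 5 of 7. At the other end of the list, Dpt, which encodes dermatopontin, a matrix protein of many fibroblasts, had 964 CPM (537 to 1362) against 719 CPM (301 to 1071) and a log2 fold change of 0.48 ± 0.13; its call was lost without mouse 1, 2, 4, 5 or 8, with adjusted p up to 0.120 in the same edgeR test.

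By size alone, the 12 genes with the largest increases among those that rose in every mouse and reached a mean of 5 CPM were Nptx2, Igsf1, Fam167a, Dact2, Gm45187, Bmp7, Adamts16, Slc6a13, Limch1, Necab3, Islr2 and Aif1l, of which Dact2, Bmp7 and Limch1 are also in the progenitor list. They were genes of low abundance outside the selected cells: in the other ASC the median of the mice ran from 0.0514 CPM for Fam167a to 3.88 CPM for Aif1l. Dact2, a cytoplasmic regulator of WNT and TGF-beta signals, had 19.2 CPM (5.12 to 86.7) against 1.297 CPM (0.0242 to 2.74) (log2 fold change 5.14 ± 0.49). Limch1, an actomyosin regulator, had 34.5 CPM (26.1 to 54.8) against 2.72 CPM (0.351 to 6.22) (log2 fold change 3.94 ± 0.48). Aif1l, which encodes an actin-bundling protein, stood at 39.2 CPM (32.6 to 74.5) against 3.88 CPM (1.76 to 11.8), and Adamts16, a secreted metalloprotease, at 67.01 CPM (23.9 to 191) against 3.698 CPM (0.155 to 23.5). None of these 4 overlapped between the classes. Nptx2, a secreted pentraxin known from synapses, varied more, from 1.29 to 45.3 CPM around a median of 11.3 CPM, against 0.184 CPM (0 to 1.81). Slc6a13, a transporter of GABA and taurine, had 6.9003 CPM (3.21 to 23.8) against 0.368 CPM (0 to 7.85), and here the ranges overlapped. Reads of Gm45187, which lies opposite to Uvrag, and of Islr2, which overlaps Islr, cannot be told apart with certainty from those of their neighbours.

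The 12 genes that fell most, by the same rule, were Art4, Tspan11, Gatm, Fmod, Tmem176a, Cnmd, Shisa3, Cpe, Meox2, Tmem176b, Olfm2 and Cd300lg. Meox2 overlaps a predicted gene on the same strand, and its reads are uncertain. Fmod, which encodes fibromodulin, a proteoglycan that binds fibrillar collagen, had 0.939 CPM (0.231 to 14.7) in the Dpp4+ Pi16+ ASC against 38.3 CPM (6.88 to 309.7) (log2 fold change -5.05 ± 0.61). Cpe, a carboxypeptidase that processes peptide hormones, had 1.48 CPM (0.116 to 22.5) against 39.7 CPM (11.9 to 135), and Olfm2, a secreted olfactomedin, 1.39 CPM (0.326 to 6.09) against 26.8 CPM (3.09 to 65.8). The lowest mice of the other ASC met the highest mice of the selected cells for these 3 genes, although each mouse had the lower level in its Dpp4+ Pi16+ ASC. Tmem176b, a membrane channel protein that shares its locus with Tmem176a on the opposite strand, had 5.15 CPM (0.875 to 17.7) against 71.2 CPM (21.2 to 197), and Art4, a surface ADP-ribosyltransferase, 0.0437 CPM (0 to 0.651) against 6.81 CPM (1.2995 to 20.3), both without overlap. Cnmd, which encodes chondromodulin, an inhibitor of vessel growth, stood at 0.202 CPM (0 to 2.31) against 14.5 CPM (0.0727 to 36.6). Gatm, which makes the creatine precursor, was near 0 in the selected cells at 0.0582 CPM (0 to 1.22) and low in the others at 2.98 CPM (0.659 to 39.7).

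**Figure D2:**
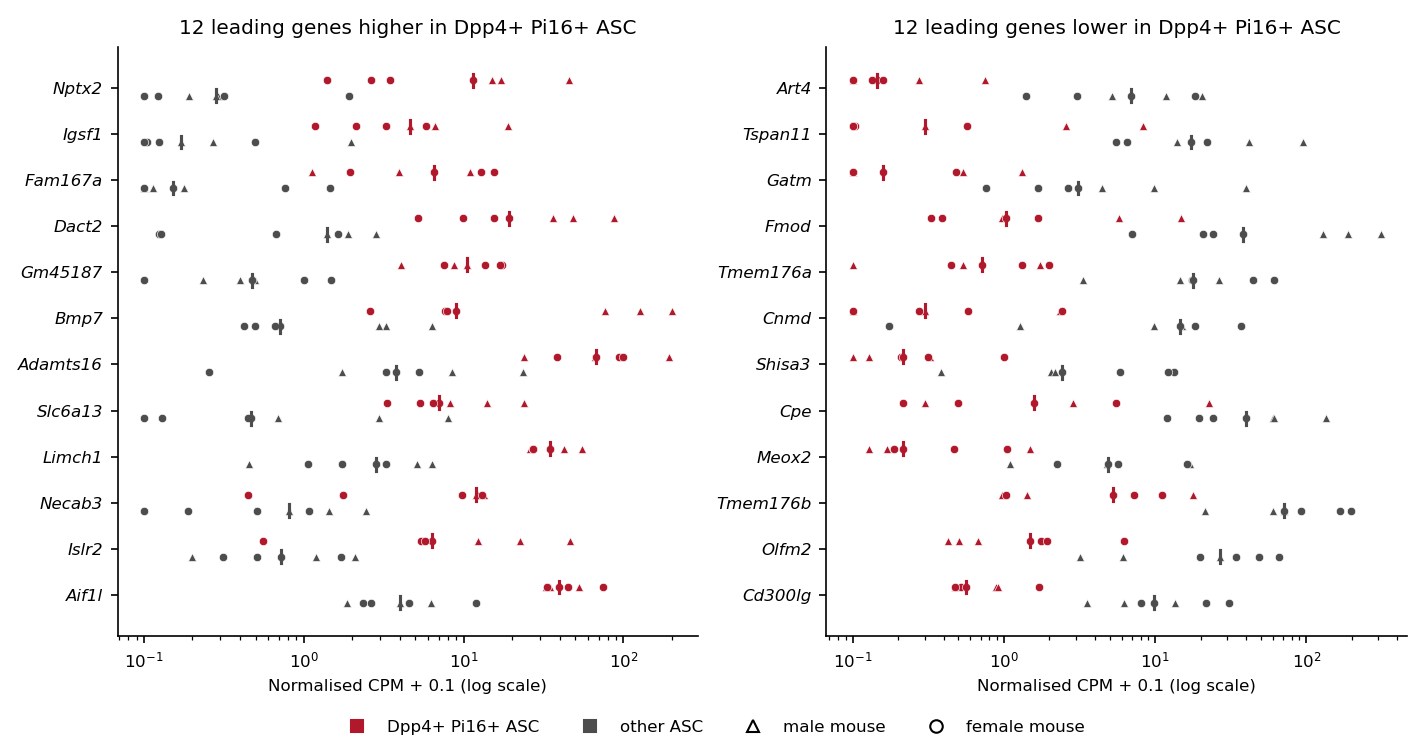
For the 12 leading genes in each direction, each point is a mouse (triangles male, circles female), with the normalised CPM + 0.1 on a log x axis, red for Dpp4+ Pi16+ ASC and grey for other ASC; short bars are medians. Limch1 sat between 26.1 and 54.8 CPM in the red points and at most 6.22 CPM in the grey ones, and the male mice were the 3 highest red points for Bmp7.

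Markers of committed preadipocytes, a state named ASC1a in the study, were lower in the Dpp4+ Pi16+ ASC: 18 of 21 tested fell and none rose (median log2 fold change -1.44). Over all genes tested, 3.87% fell. All gene lists here, those of ASC1a and ASC1b among them, were chosen with earlier results of these data known. They are no independent evidence of the direction. Col15a1, a basement membrane collagen, had 37.1 CPM (12.9 to 110.4) against 109 CPM (70.6 to 423) (log2 fold change -2.04 ± 0.17). Apoe, a lipid carrier protein, had 91.4 CPM (9.97 to 421) against 957 CPM (262 to 1501) (log2 fold change -3.25 ± 0.33), and Cxcl14, a chemokine, 7.81 CPM (1.89 to 11.2) against 50.4 CPM (36.1 to 151) without overlap. Lpl, the lipase that frees fatty acids from circulating triglyceride, was abundant in both classes and lower in the selected cells of every mouse, with 321 CPM (184 to 815) against 880.5 CPM (533 to 1807). Markers of the F3 cells, named ASC1b, fell in 11 of 15 (median -1.34), among them Gas6, a ligand of TAM receptors, with 66.5 CPM (8.16 to 121) against 329.97 CPM (133 to 368), and Mgp, matrix Gla protein, with 336 CPM (44.2 to 744) against 1051 CPM (325 to 2329). F3 itself, the initiator of coagulation, had 128 CPM (24.3 to 159) against 242 CPM (126 to 348) and a log2 fold change of -1.10 ± 0.28 (edgeR quasi-likelihood test, adjusted p = 0.0345), lower in 6 of 7 mice. The calls of F3 and of Mgp were each lost in 5 of the 7 fits that left out a mouse, with adjusted p up to 0.0921 for F3 (without mouse 2, 3, 4, 5 or 6/7) and 0.1004 for Mgp (without mouse 1, 2, 3, 4 or 6/7).

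Among 16 adipogenic regulators tested, Pparg, Cebpa, Cebpb and Cebpd fell and Ebf2 and Klf4 rose (median -0.52). Pparg, the receptor that drives adipocyte differentiation, stood at 3.12 CPM (0.135 to 11.5) against 17.7 CPM (3.93 to 23.7) (log2 fold change -1.81 ± 0.49), and Ebf2, a factor of preadipocytes, at 149 CPM (89.99 to 187) against 78.3 CPM (40.8 to 111) (1.03 ± 0.12). The call of Pparg was lost without any 1 of mice 1, 2, 3, 4, 5 and 6/7, with adjusted p up to 0.116. Leaving out single mice also lost the calls of Cebpa (in 3 fits), Cebpb (in 2) and Cebpd (in 5). Of 16 genes of fatty acid uptake and storage, 5 fell, namely Lpl, Cd36, Fabp4, Plin2 and Slc27a1, and 1 rose (median -0.16). The call of Cd36 was lost in 4 of the fits that left out a mouse. The riser was Mgll, the lipase of monoglycerides, which had 33.2 CPM (22.4 to 67.7) against 4.899 CPM (3.87 to 16.9) with no overlap (log2 fold change 2.34 ± 0.24). Fabp4, a fatty acid carrier, went the other way with 4.45 CPM (1.29 to 13.8) against 35.996 CPM (2.62 to 79.5). No gene of the cell cycle list passed among the 9 of 20 abundant enough to be tested, where 7.78% of all genes passed. A count of 0 among 9 is near that share, and Mki67, Top2a and Cdk1 were not tested. Whether the cells cycle was not tested.

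BMP and TGF-beta genes moved in both directions. Of 25 tested, 4 rose and 6 fell (median -0.38). Among ligands, Bmp7 (chromosome 2, 172868012 to 172940321) rose, with 8.84 CPM (2.49 to 201) against 0.605 CPM (0.325 to 6.26), and Tgfb2 rose, with 31.5 CPM (25.9 to 68.6) against 20.05 CPM (7.33 to 36.6). The ligands Bmp4 and Gdf10 fell: Bmp4 had 3.15 CPM (1.48 to 32.2) against 13.3 CPM (6.01 to 34.2), and Gdf10 149 CPM (28.8 to 394) against 318 CPM (134 to 1905). Of the receptors, Tgfbr2, the type 2 receptor of TGF-beta, rose with 1189 CPM (719 to 2258) against 488 CPM (328 to 795) (log2 fold change 1.27 ± 0.09). Bmper, an extracellular regulator of BMPs, fell, with 38.5 CPM (16.7 to 78.97) against 102 CPM (70.2 to 289). Id1, a common target of BMP signals, fell as well, with 6.02 CPM (2.805 to 19.8) against 17.8 CPM (9.502 to 42.5). Of 20 WNT genes tested, 2 rose and 3 fell (median -0.44). The risers were 2 ligands, Wnt2 with 11.5 CPM (3.03 to 35.5) against 3.33 CPM (0.681 to 9.85) and Wnt11 with 12.9 CPM (4.92 to 28.4) against 4.59 CPM (1.07 to 8.38). The ligands Wnt5a, Wnt5b and Wnt9a were tested and did not pass. The decoy receptors Sfrp1 and Frzb fell, Sfrp1 with 4.55 CPM (0.116 to 48.9) against 32.7 CPM (8.84 to 163) and Frzb with 0.852 CPM (0 to 12.8) against 19.7 CPM (0.8197 to 157). Sfrp2 and Sfrp4 were tested and did not pass. Tcf7l2, a transcription factor of the pathway, also fell, with a log2 fold change of -0.60 ± 0.16. Its call was lost in 6 of the fits that left out a mouse. The calls of Bmp4 and Frzb were each lost without single mice (adjusted p up to 0.104 without mouse 1, 2, 3, 5 or 6/7 for Bmp4 and 0.0869 without any 1 of mice 1, 2, 3, 4, 5 and 6/7 for Frzb), and that of Bmper without mouse 4 (0.0563).

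Matrix genes moved in both directions. Of 18 genes of elastic fibres and microfibrils, 6 rose (Fbn1, Efemp1, Mfap5, Emilin2, Loxl1 and Loxl2) and 3 fell (Emilin1, Lox and Ltbp2), with a median of 0.22. Fbn1, the backbone of the microfibril, had 1425 CPM (1241 to 6468) against 477 CPM (321 to 1242) (log2 fold change 1.96 ± 0.12), and Mfap5, which binds it, 1107 CPM (745 to 1219.7) against 304 CPM (241 to 581). Of 17 basement membrane genes, 8 fell and 4 rose (median -0.34). The fallers were collagens (Col4a1, Col4a2, Col4a3, Col4a4, Col15a1 and Col18a1) with Nid2 and Sparcl1, and the risers were the laminin chains Lama4, Lamb1 and Lamc1 with Nid1, which links laminin to collagen IV. Nid1 had 1274 CPM (751 to 3577) against 643 CPM (428 to 1991), whereas its relative Nid2 had 33.1 CPM (4.51 to 74.1) against 74.4 CPM (10.5 to 281). Of 20 fibrillar collagens and partners, 9 fell, among them the 3 chains of collagen VI and the proteoglycans Dcn, Lum, Bgn, Prelp and Fmod, and 3 rose, namely Col14a1, Dpt and Pcolce2 (median -0.42). Col14a1, a collagen that sits on fibril surfaces, had 403 CPM (186 to 897) against 139.5 CPM (105 to 293). The procollagen enhancers parted without overlap: Pcolce2 had 335 CPM (307 to 399) against 117 CPM (71.4 to 148), and Pcolce 422 CPM (276 to 479.96) against 826 CPM (728 to 1084). The calls of Loxl2 and Col18a1 were lost without any 1 mouse. Those of Lamc1, Lum and Bgn were each lost in 6 of the fits that left out a mouse, and that of Dpt in 5.

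Among 18 surface proteins used to sort stromal cells, 7 rose (Cd34, Ly6a, Ly6c1, Thy1, Cd55, Cd248 and Procr) and 5 fell (Cd81, Icam1, Vcam1, F3 and Pdgfrb), with a median of -0.08. The call of Icam1 was lost in 6 of the fits that left out a mouse, that of F3 in 5 and that of Procr in 3. Ly6c1 had 645 CPM (556 to 974) against 300.4 CPM (197 to 413) without overlap, and Cd248, or endosialin, 3282 CPM (1585 to 6916) against 989 CPM (591 to 2035). Pdgfrb, whose promoter drives the reporter used for the gate, was lower, with 227 CPM (56.1 to 369) against 350.4 CPM (72.8 to 589.8) (log2 fold change -0.61 ± 0.09), and the gate removed cells below its limit from both classes. Of 16 cytokines, chemokines and their receptors, 4 rose and 3 fell (median 0.14). Cxcl12, a chemokine that retains leukocytes, fell with 152 CPM (47.1 to 283) against 519 CPM (151 to 659) (log2 fold change -1.57 ± 0.10), and Ackr3, a scavenging receptor for it, rose without overlap, with 977 CPM (669.5 to 1136) against 312 CPM (204 to 452). Of 20 immediate early genes, which respond to dissociation as well as to signals, 10 fell and Klf2 rose (median -0.64); Jun had 675 CPM (330.1 to 1242) against 1283 CPM (709 to 2119) and Fos 3299 CPM (567 to 4606) against 4569.8 CPM (1857 to 7965). The part of dissociation in these values was not tested.

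**Figure D3:**
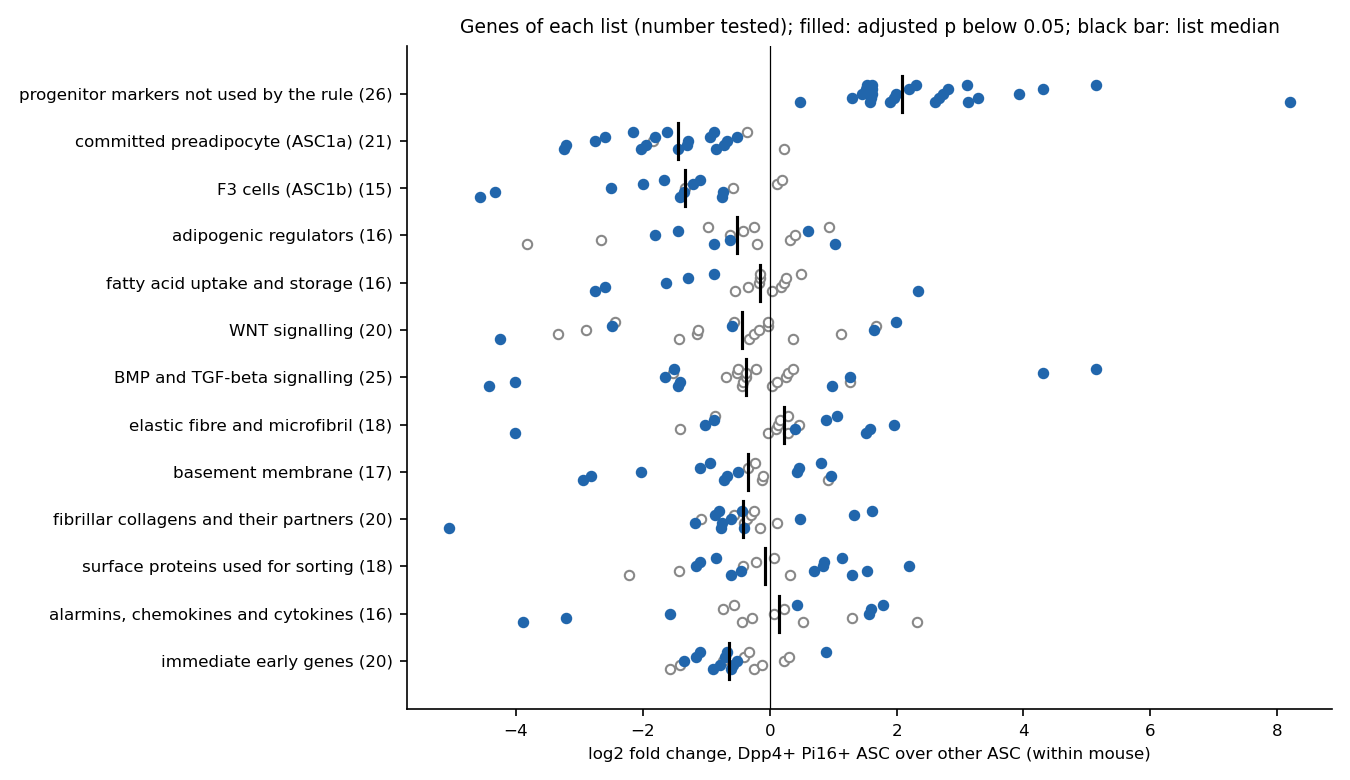
Each point is a gene of the list named on the y axis (number of genes tested in brackets) at its log2 fold change of Dpp4+ Pi16+ ASC over other ASC on the x axis; filled points passed an adjusted p of 0.05 and black bars are list medians. All lists were chosen with earlier results known. The progenitor list lies wholly to the right with a median of 2.09. No filled point of the ASC1a and ASC1b lists lies to the right of 0.

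The share of cells with a gene at 10 CPM or more gave a second view of 9 markers, compared within mice by an exact two-sided sign-flip permutation test over the 7 mice, whose smallest p is 0.0156. Sema3c was found in 82.1% of the Dpp4+ Pi16+ ASC (median of the mice, 64 to 100%) against 30.1% (14.1 to 39.7%) of the other ASC, and Cd55 in 92.9% (80 to 100%) against 65.4% (44.2 to 82.8%). Col15a1 was found in 30.9% (19.2 to 67.8%) against 77.1% (69.2 to 88.04%). The shares of Sema3c, Cd55 and Ly6c1 were higher and those of Col15a1 and Fabp4 lower in 7 of 7 mice, each with an adjusted exact p of 0.0281 over the 9 genes. All 5 calls were lost without mouse 1, 2, 3, 4 or 5 (adjusted exact p = 0.05625), where 6 mice allow no p under 0.0312 before adjustment. The mean within-mouse difference was 50.97 percentage points ± 17.4 (SD, n = 7) for Sema3c and -41.7 ± 16.3 (SD, n = 7) for Col15a1. For F3 the test did not pass by this measure, at 72% against 78.1% of cells (mean difference -3.61 ± 16.7 percentage points, SD, n = 7, adjusted exact p = 0.516), although its summed level was lower. Il6 (adjusted exact p = 0.0703), Icam1 (0.201) and Pdgfrb (0.422) did not pass, although Icam1 passed without mouse 8 (-17.2 points) and Il6 without mouse 6/7 (-6.32 points), each with an adjusted exact p of 0.0469. In EC, Sema3c was found in 2.101%, Cd55 in 8.26% and Col15a1 in 4.62% of cells, all below the shares in either class of ASC. Ly6c1 was found in 94.3% and Fabp4 in 96.4% of EC, so EC give no low background for these 2 genes.

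By medians over the mice, cells with Pi16 but under 10 CPM of Dpp4 lay between the Dpp4+ Pi16+ ASC and the ASC with neither gene for 10 of the 13 genes examined. The ASC held 866 cells with Pi16 alone, 47 with Dpp4 alone (25 of them in mouse 6/7) and 517 with neither; mouse 4 had only 2 of the last and is absent from that class. Sema3c had a median over the mice of 244 CPM (65.2 to 306) with both genes, 38.6 CPM (10.8 to 73.8) with Pi16 alone and 18.2 CPM (0.999 to 38.2) with neither, in CPM without TMM factors. Fbn1 had 1779, 826 and 485 CPM in that order, and Limch1 34.2, 2.94 and 0.926 CPM. Col15a1 ran the opposite way with 27.8, 128 and 188 CPM. Cpe, Fmod and F3 were not ordered so. Cpe and Fmod had medians of 71.7 and 90.2 CPM in the cells with Pi16 alone, above the 45.7 and 14.2 CPM of the cells with neither. Within single mice the order of the medians was not always kept. With Pi16 alone Dact2 was lower than with neither in mice 2, 5, 6/7 and 8, and Bmp7 in mice 1 and 2. The same was so for Efhd1 in mouse 5, Fbn1 in mouse 3 and Sema3c in mouse 8. Apoe was higher with Pi16 alone than with neither in mice 3 and 8. The cells with Dpp4 alone reached 10 in mouse 6/7 only, where they had 276 CPM of Sema3c and 537 CPM of Cd55, against 244 and 801 CPM in the cells of that mouse with both genes. These classes are ranges of the same reads that chose the cells, and no test was made between them. In mouse 2 the cells with both genes came nearly all from the DPP4-positive plate. Its cells with neither gene came mostly from the DPP4-negative plate, so class, plate and sort cannot be fully told apart there.

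**Figure D4:**
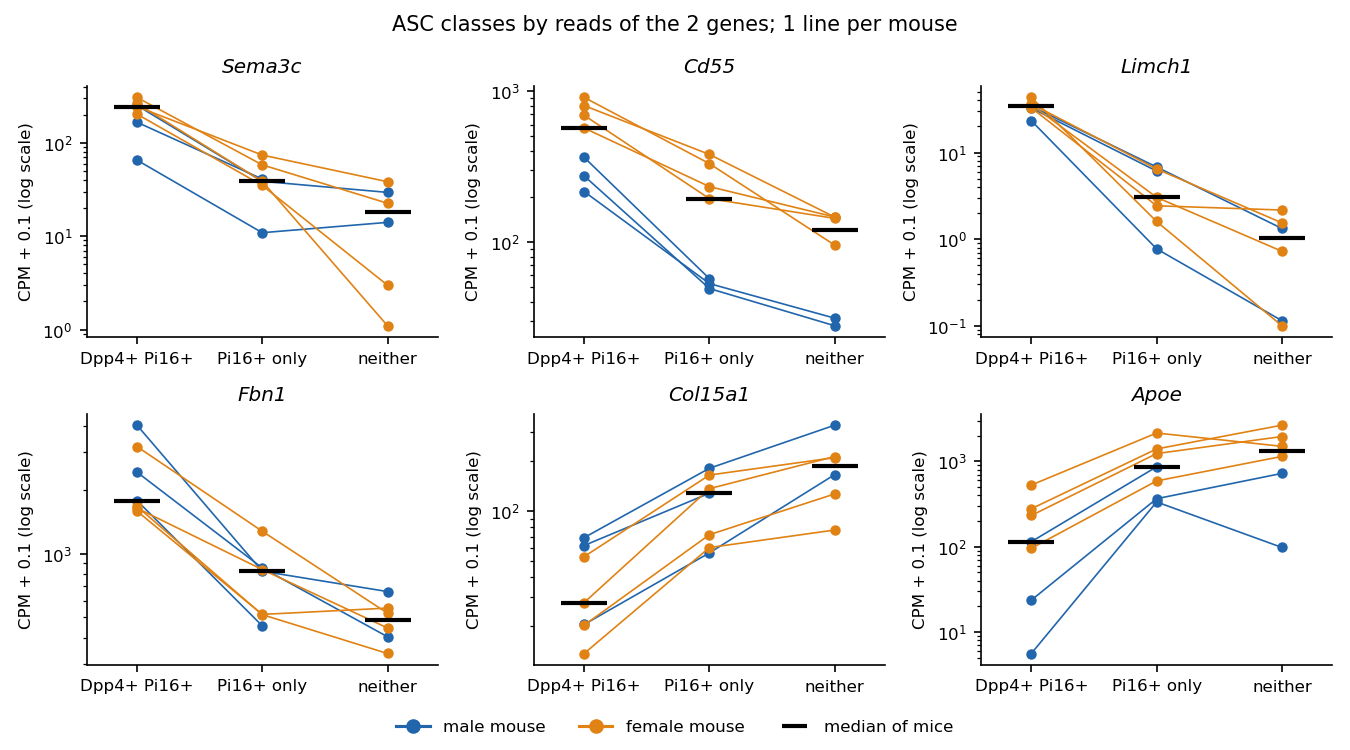
Each line is a mouse (blue male, orange female), joining the level of a gene, in CPM + 0.1 on a log y axis, in ASC with Dpp4 and Pi16, with Pi16 alone and with neither gene; black bars are medians of the mice. Sema3c fell from a median of 244 to 18.2 CPM from left to right, and Col15a1 went from 27.8 to 188 CPM.

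The selected cells were themselves not uniform. In mice 2, 3 and 4, which held 46, 12 and 20 Dpp4+ Pi16+ ASC with Pi16 under 100 CPM, these cells had 70.5, 26.5 and 43.5 CPM of Sema3c, against 355, 235 and 208 CPM in those of the same mice with more Pi16. Col15a1 was at 154, 49.5 and 141 CPM in the low-Pi16 cells and at 31.8, 23.8 and 34.5 CPM in the rest, and Apoe showed the same order. In all 3 mice the low-Pi16 cells had less Sema3c and more Col15a1 and Apoe than the rest, and these are the mice of plates 709, 129 and 131, where most ASC had Pi16. The 4 other mice held 1 to 8 such cells, too few to be summed.

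The DPP4 surface sort of mouse 2 gave a contrast that did not use the Dpp4 reads of the cells. All ASC of the DPP4-positive plate were set against all ASC of the DPP4-negative plate, 362 against 356 cells, for the genes called in the 6 other mice. Of 320 genes called higher in Dpp4+ Pi16+ ASC without mouse 2, 292 (91.2%) were also higher on the DPP4-positive plate, where 27.4% of all 10149 genes tested were higher. Of 288 called lower, 283 (98.3%) were lower there, against 72.5% of all genes. Sema3c was at 245 CPM on the DPP4-positive and 29.4 CPM on the DPP4-negative plate, Efhd1 at 176 and 24.2 CPM, and Limch1 at 24.4 and 2.03 CPM. Fabp4 was at 12.2 and 129.9 CPM, and Apoe at 442 and 2325 CPM. These are 1 plate of each sort from 1 mouse, so there is no replicate check, and plate and sort cannot be told apart.

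Male and female Dpp4+ Pi16+ ASC differed in a number of genes that depended on the test, and the progenitor gene Bmp7 was among those called. Of 8504 genes tested, 28 (0.329%) passed an adjusted p of 0.05 and a fold above 2.6 in edgeR's quasi-likelihood test. The higher level was in males for 17 (0.200% of the genes tested) and in females for 11 (0.129%). Mouse 2 was kept here, although 253 of its 258 selected cells came from the plate sorted for DPP4. No male plate was sorted by DPP4. In all 28 the 3 males and the 4 females did not overlap, which was so for 1131 genes (13.3%). The likelihood ratio test of edgeR, which the study used between the sexes, called 235 genes and DESeq2 254, both including all 28, and the quasi-likelihood test without the fold limit still called 28. The count was 59 without male mouse 1, 15 without female mouse 2 and 13 without female mouse 6/7, and 12 of the 13 were among the 28. With library totals in place of TMM factors it was 54, of which 14 were male-higher and 40 female-higher. The Y-linked genes Ddx3y (10.5, 16.4 and 47.9 CPM in males 1, 4 and 8, at most 0.0233 CPM in a female) and Eif2s3y (22.6, 13.1 and 27.7 CPM, at most 0.0583) matched the labels.

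Bmp7, a BMP ligand that promotes brown adipocyte formation, had 78.3, 125 and 200.1 CPM in the Dpp4+ Pi16+ ASC of males 1, 4 and 8 and 7.72, 8.78, 7.81 and 2.496 CPM in those of females 2, 3, 5 and 6/7. All males lay above all females, and the log2 fold change was 4.33 ± 0.49 (edgeR quasi-likelihood test, adjusted p = 0.00305). The other ASC had 3.16, 6.26 and 2.84 CPM in the males and 0.398, 0.325, 0.605 and 0.562 CPM in the females, so the level in the selected cells was higher in every mouse of either sex. No other gene of the 26 progenitor markers differed between the sexes by this call (median log2 fold change 0.18, all genes 0.05). Sult1e1, which inactivates oestrogens by sulphation, had 70.4, 274 and 110.5 CPM in males and 0.0914, 0.195, 0 and 1.38 CPM in females (log2 fold change 8.37 ± 1.09). C7, a late complement component, had 82.6, 67.9 and 78.2 CPM against 0.652, 0.238, 0 and 2.29 CPM, and Ace, the angiotensin-converting enzyme, 696, 289 and 434 CPM against 71.8, 83.6, 43.9 and 52.1 CPM. Of 15 basement membrane genes tested, Col4a2, Col4a5 and Lamb2 were higher in males and none in females (median 1.34); Lamb2 had 489.7, 410.3 and 801 CPM against 119, 141, 85.4 and 49.2 CPM. Hmcn2, Hp, Adarb1 and Ucp2 were also among the genes higher in males; Ucp2, an uncoupling protein of mitochondria, had 65.5, 20.9 and 55.03 CPM against 5.38, 4.92, 4.46 and 2.78 CPM. Several of these calls did not hold without single mice in the same edgeR test. Col4a2 lost its call without any 1 mouse (adjusted p up to 0.232), Lamb2 without mouse 2, 5, 6/7 or 8 (up to 0.112), Col4a5 without mouse 2, 3, 5, 6/7 or 8 (up to 0.137) and C7 without mouse 2 (0.0625).

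In the females, Hoxa10, a homeobox gene of the posterior body (chromosome 6, 52231197 to 52240854), had 26.96, 26.3, 20.6 and 30.6 CPM in mice 2, 3, 5 and 6/7 and no read in the males, which makes it at least 1125-fold higher when 3 reads over the male cells together are taken as the floor. Ngfr, the low-affinity neurotrophin receptor, had 7.403, 313, 382 and 113 CPM against 0.0882, 0.102 and 0 CPM in males 1, 4 and 8, with mouse 2 well below the other females. Il4ra, a receptor chain for interleukins 4 and 13, had 129, 744, 428 and 181 CPM against 23.8, 11.2 and 19.8 CPM (log2 fold change, male over female, -4.34 ± 0.65), and Osr2, a zinc finger factor of mesenchyme, 104, 238, 154 and 109.7 CPM against 20.6, 21.9 and 3.76 CPM (-3.29 ± 0.59). In the same edgeR test Il4ra lost its call without mouse 4 or 8 (adjusted p up to 0.0730), and Osr2 without mouse 2, 3, 4, 5 or 6/7 (up to 0.112). Slc6a2, the noradrenaline transporter, had 21.4, 7.87, 10.8 and 32.8 CPM against 0.147, 0.254 and 0.134 CPM, and Akr1c14, a hydroxysteroid dehydrogenase, 9.32, 36.2, 162 and 14.8 CPM against 0.0294, 0 and 0 CPM. The other genes named were Doc2b, Marcksl1, Cntn1 and Tsix, whose reads cannot be told apart from those of Xist without strand. Of 21 tested genes that the study names as different between the sexes, 8 were called here, against 0.329% of all genes. Ddx3y, Eif2s3y, Sult1e1, C7 and Ace were higher and Ngfr, Il4ra and Hoxa10 lower in males. The median log2 fold change, over genes of both directions, was 1.89. All 21 had p below 0.05 before adjustment in the same edgeR test, as did 1281 of all 8504 genes. The study chose the genes it names with these libraries, and its core set also with bulk RNA-seq of ASC sorted from other mice. Their calls here are therefore not independent evidence.

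**Figure D5:**
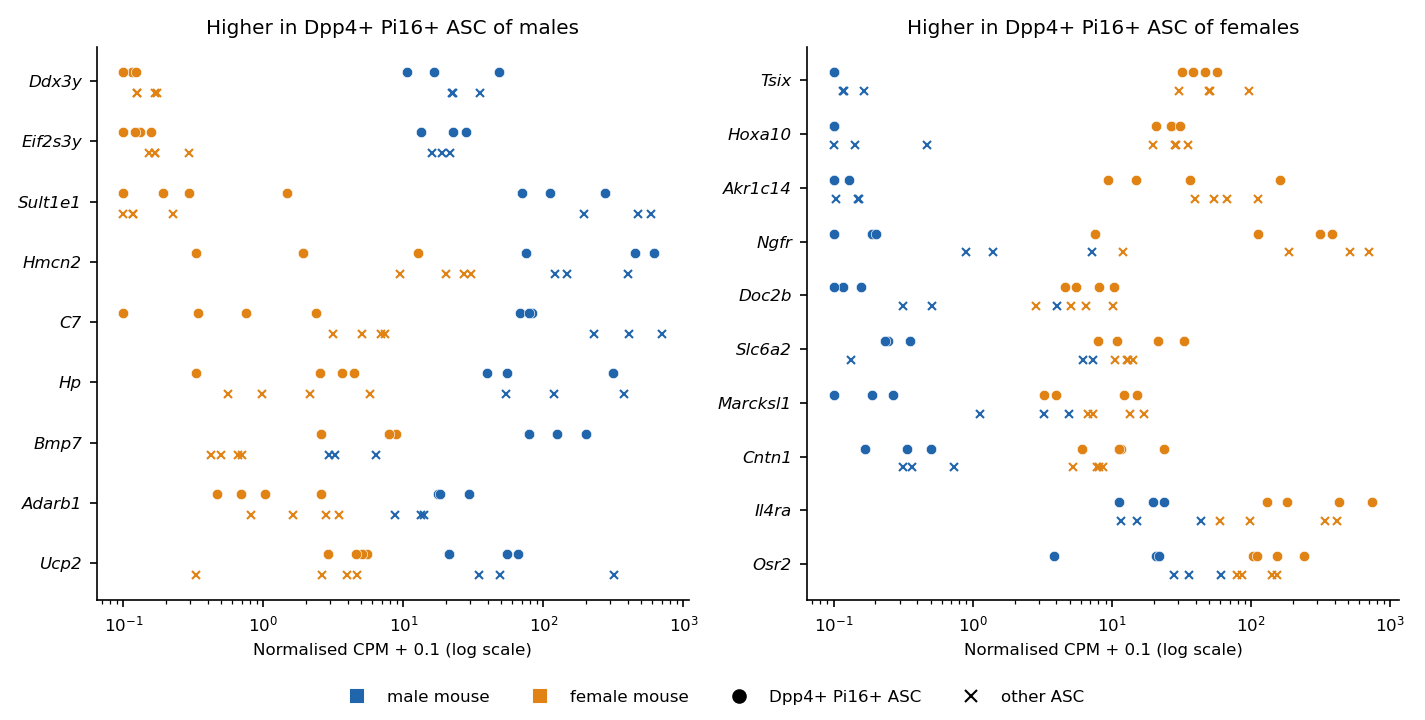
For genes with large differences in each direction, each symbol is a mouse (blue male, orange female) at its normalised CPM + 0.1 on a log x axis, circles for Dpp4+ Pi16+ ASC and crosses for other ASC. Blue and orange circles do not overlap for any of these genes, and the circles of Bmp7 lie to the right of the crosses of the same sex.

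Whether the sex difference itself differed between the Dpp4+ Pi16+ ASC and the other ASC was tested with an interaction term, with mouse as a block. By edgeR's quasi-likelihood test 0 of 11397 genes (0.00%) passed an adjusted p of 0.05, while 860 were under 0.05 before adjustment; the likelihood ratio test of edgeR called 82 and DESeq2 120. For Bmp7 the male over female log2 fold change was larger in the selected cells by 1.29 ± 0.64 (edgeR quasi-likelihood test, adjusted p = 0.691). For Ngfr the difference was -4.13 ± 0.58 (edgeR quasi-likelihood test, adjusted p = 0.167). The other ASC of males had 7.05, 0.793 and 1.29 CPM of Ngfr.

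Markers of other cell types were low in the selected cells apart from Tek and Wt1. The 8 endothelial markers not used by the rule summed to 62.9 to 189 CPM over the mice, against 20.2 to 74.6 CPM in the other ASC, and Tek made up nearly all of it: Tek, which encodes the angiopoietin receptor Tie2, had 117 CPM (67.3 to 151) against 33.5 CPM (15.9 to 71.1) (log2 fold change 1.58 ± 0.24), while the other 7, Cldn5 and Tie1 among them, were under 1 CPM in the selected cells. The 10 mural markers summed to 8.74 to 41.3 CPM in the selected cells and 39.1 to 200.2 CPM in the other ASC. Of 8 tested, 6 fell. Acta2 had 2.98 CPM (0.328 to 23.4) against 39.98 CPM (13.5 to 81.8). The calls of Abcc9 and Notch3 were each lost in 5 of the fits that left out a mouse. Those of Kcnj8 and Myh11 were each lost in 4, and Acta2 and Mylk kept theirs in these fits. When cells with the most reads of other cell types' markers were left out, 678 genes passed, 639 of them among the 887, and Acta2 lost its call. The limit was the 95th percentile in ASC of the endothelial, mural, macrophage, mesothelial and adipocyte marker sums. The endothelial sum was nearly all Tek and the mesothelial sum nearly all Wt1. ASC rich in these genes were thus left out too, so the setting is no clean check on other cell types. The part of the mural markers in the lower values above was otherwise not tested. The 10 macrophage and leukocyte markers summed to at most 13.4 CPM in the selected cells (others at most 14.4), the 8 adipocyte markers to 20.9 (others 66.4) and the 5 Schwann cell markers to 23.8 (others 39.9). The 10 mesothelial and epithelial markers reached 20.1 to 98.98 CPM, nearly all of it Wt1. The other ASC shared Wt1, at a pooled 57.5 CPM against 60.4 in the selected cells. Krt19 was higher in the selected cells, at a pooled 3.41 CPM against 0.259. Msln was lower, at 0.109 CPM against 5.39. Neither was abundant enough to be tested. Upk1b, Epcam and Fgfr4 had at most 0.00218 CPM. Of 3 adipocyte markers abundant enough to be tested Car3 fell, of 3 Schwann cell markers Cdh19 fell, and the 1 macrophage and 1 mesothelial marker tested did not pass. The calls of Car3 and Cdh19 were each lost in 4 of the fits that left out a mouse. No steroid receptor passed among 5 tested, which is near the 7.78% called over all genes. Of 24 tested genes of the study's sex list, again chosen on these libraries, 2 rose and 5 fell in the selected cells. Of 5 general ASC markers tested, Cd34 and Ly6a rose and Dcn and Lum fell.

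Reads per cell did not pass a test of difference between the classes. The median reads per cell were 616741 (434178 to 944010 over the mice) against 669528 (425252 to 821834), higher in 5 of 7 mice (exact sign-flip permutation p = 0.391, adjusted over 4 quantities 0.391). After each cell was thinned to 150000 reads, which left out 3 shallower ASC, the median number of genes was 4348 (3576 to 5059.5) against 4241 (3357 to 4559.5), higher in 6 of 7 mice with a mean difference of 266 ± 176 genes (SD, n = 7, exact permutation p = 0.0312, adjusted 0.0625); before thinning it was 5857 against 5696. The mitochondrial share of reads was 1.76% against 1.41%, higher in 7 of 7 mice by 0.155 ± 0.196 percentage points (SD, n = 7, exact permutation p = 0.0156, adjusted 0.0625). The part of these differences in the gene results was not tested. With cells chosen on the thinned counts but summed with all their reads, 797 genes passed, 745 of them among the 887. That setting did not equalise depth in the sums.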

How the data were processed

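Stromal cells of pgWAT from 7 labelled mice were profiled with Smart-seq2 in 11 plates. The authors aligned reads with STAR to mm10 and spike-in sequences and quantified genes with Salmon, after bcl2fastq (names from the submitters' processing notes and the methods; versions are not given in the sources used here). The deposited values are whole-number read counts per gene and cell, not normalized. The authors had removed cells by reads, genes, mitochondrial and spike-in share and as mixed with another class, and no doublet caller was run here. The table held 23507 gene rows, of which 23461 matched GENCODE vM21 (GRCm38), and 72 spike-in rows with 1.98% of reads, left out of all sums. All columns belonged to a labelled plate, and 0 cell names were shared.

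Cells were chosen by the rule in the text, and the members and gene lists were chosen with earlier results of these data known. Counts were summed per mouse and class, since cells of a mouse are not replicates, and each mouse gave at least 10 cells of either class. Genes with more than 600 counts in at least 2 sums were tested with edgeR 4.0.16 in R 4.3.3 (TMM, quasi-likelihood F test, two-sided, Benjamini-Hochberg adjustment over all genes tested). The model of Dpp4+ Pi16+ against other ASC had mouse as a block because both sums come from the same animal; the deviations of the paired sums correlated at 0.192 to 0.453. The sex comparison used the sums of the selected cells with a fold limit of 2.6, after the study's methods. The likelihood ratio test of edgeR, which the study used between the sexes, and DESeq2 1.42.0 were alternatives. Shares and depths were compared with exact permutation tests over mice. The scripts were tested on simulated counts. Genes named are the 12 largest changes in each direction among those called in the same direction in every mouse with a mean of at least 5 CPM in the higher class, the 10 largest in each direction for sex among those whose mice did not overlap, called or illustrative members of the 23 lists, and the genes of the rule; some genes that the rule would name are not reported here. Nothing in the labels says that mice of a sex came from separate litters or days, so p-values measure the spread between these mice. Separate plates were sequenced in separate lanes and most mice have 1 plate, so mouse and plate cannot be told apart for them.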

Additional observations from a re-analysis of the deposited data

Results flagged for a closer look

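Of 47 groups of values checked for a value far from the rest, 4 were flagged, where chance flags about 1 in 20. Adamts16 rose by 8.04 on the log2 scale of CPM + 0.1 in mouse 2, against 2.88 to 4.92 in the 6 other mice. Sult1e1 was at 1.38 CPM in the Dpp4+ Pi16+ ASC of female mouse 6/7, against 0 to 0.195 CPM in the other females. Hmcn2 was at 12.7 CPM in female mouse 3, against 0.232 to 1.82 CPM. Bmp7 was lowest in female mouse 6/7 at 2.496 CPM, against 7.72 to 8.78 CPM in the other females.

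A signal lay outside the cells compared. Of the 1209 cells that were not ASC by the rule, 69 (5.71%) had Dpp4 and Pi16 each at 10 CPM or more. The EC among these cells had both genes in 4 of 714 (0.5602%, 95% exact interval 0.153 to 1.43%). Of the 69, 51 had Pdgfra under 20 CPM, and 18 had Pdgfra at 20 CPM or more but reached 50 CPM of the endothelial genes. Plate 129 held 26 of the 69, plate 709 held 15 and plate 172 held 13. These cells entered no comparison.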

How the results depend on the processing

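Against the other ASC, the count of 887 genes became 1502 with DESeq2, 384 with a fold above 2.6, 197 with no replicate block and 463 against ASC with neither gene; of the 197, 196 were among the 887. Leaving out a mouse gave 610 to 852 genes. The other settings tried gave counts within 1.5 times, and the Pi16 limit of 100 CPM, added after seeing the data, gave 988, of which 840 were among the 887. For sex, 28 genes became 235 with the likelihood ratio test, 254 with DESeq2, 54 with library totals alone, 18 with filterByExpr, 18 when cells rich in other markers were left out, and 13 to 59 when a mouse was left out. Of the genes named for sex, Adarb1, C7, Col4a2, Col4a5, Hmcn2, Hp, Il4ra, Lamb2, Marcksl1 and Osr2 lost the call without at least 1 mouse, and of the 24 leading genes against the other ASC only Igsf1 did. Further genes of the lists lost their calls in the same way. The interaction gave 82 genes with the likelihood ratio test, 120 with DESeq2, 4 with the Pi16 limit of 100 CPM, 1 when cells rich in other markers were left out, and 0 to 2 when a mouse was left out, also 0 with no replicate block.

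The difference in the share of selected cells was -8.38 points with mouse 2 included, -3.79 without plates 171 and 344 and -4.19 with limits of 5 CPM. Without a mouse it ran from -9.17 to -3.93. At 5 CPM the shares of Ly6c1 and Fabp4 no longer passed; Ly6c1 differed by 16.6 and Fabp4 by -12.6 points. With a mouse left out, the smallest exact p rises to 0.0312; the differences ran from 23.8 to 29.2 points for Cd55, 45.1 to 54.8 points for Sema3c, 21.96 to 28.2 points for Ly6c1, -47.1 to -38.3 points for Col15a1, -16.0 to -11.7 points for Fabp4, -6.32 to -3.68 points for Il6, -8.01 to -0.469 points for F3, -3.85 to -0.6202 points for Pdgfrb and -17.2 to -6.09 points for Icam1. With mouse 2 taken from its DPP4-positive plate alone, the difference in genes per cell was 404 and, thinned, 344, and both passed. No gene or share followed across the settings changed direction (151 genes against the other ASC and 28 for sex, fewer where a setting did not test them), the minimum of 5 cells left the sums as they were, and why counts differ between settings was not tested.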
